A study of Mus musculus with 12 samples.

Results

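The genes described here sense, edit or degrade nucleic acids inside the cell: Ifih1, Dhx58, Eif2ak2, Zbp1, Adar, Samhd1 and Trex1. They were chosen by name as nucleic acid sensors and genes of the type I interferonopathies, inherited diseases with constant interferon signalling. All 7 genes had a probe set, and together they had 14 of the 22626 probe sets that were not controls. The arrays measured RNA of total brain lysate from adult mice of 4 genotypes, 3 arrays each, without treatment and under specific-pathogen-free housing. USP18ko mice lacked Usp18, USP18ko:IFNARko mice lacked Usp18 and Ifnar1, IFNARko mice lacked Ifnar1, and WT mice were wild type. The study addressed the role of Usp18 in the CNS of mice. The labels give no strain, sex, batch or age beyond adult, and name no promoter or Cre that would limit a knockout to some cells. Whether replicates came from separate animals is not stated. A p-value here weighs a difference against a spread among replicates, pooled over all 4 genotypes, that may be technical.

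Sensors such as MDA5, the product of Ifih1, bind double-stranded RNA in the cytosol and signal through the adaptor MAVS to switch on interferon genes, while ADAR1, SAMHD1 and TREX1 edit or remove the cell's own nucleic acids or their building blocks. Secreted type I interferon binds the receptor that contains IFNAR1 and induces a large set of genes, in which several sensors are themselves included. USP18 cleaves the ubiquitin-like modifier ISG15 off other proteins and also dampens signalling from that receptor. In the brain, microglia are among the cells that respond to type I interferon.

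Promoter sequence was available in RefSeq (GRCm38.p6) for 5 of the 7 genes, in 8 windows from 250 bases before to 50 bases after an annotated start. Dhx58 and Zbp1 had none in that table. Windows are shown for the genes in which a letter pattern of interferon-responsive promoters was found, because these genes are compared below in brains with and without the receptor gene. The pattern, searched on both strands, was GAAA followed after 2 bases of any kind by GAAA, a core of the element bound by IRF factors. It occurred in 3.44% of all 32851 windows of the same length. Each sequence runs 5′ to 3′ on the gene's strand, with matches in capitals.
Ifih1 promoter, chr2:62646206-62646505, minus strand: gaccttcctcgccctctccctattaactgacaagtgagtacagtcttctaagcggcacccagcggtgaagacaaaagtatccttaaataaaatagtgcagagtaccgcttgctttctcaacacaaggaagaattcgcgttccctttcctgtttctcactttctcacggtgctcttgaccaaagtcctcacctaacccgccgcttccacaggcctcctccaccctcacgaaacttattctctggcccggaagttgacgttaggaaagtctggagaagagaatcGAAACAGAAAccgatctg
Eif2ak2 promoter, chr17:78882523-78882822, minus strand: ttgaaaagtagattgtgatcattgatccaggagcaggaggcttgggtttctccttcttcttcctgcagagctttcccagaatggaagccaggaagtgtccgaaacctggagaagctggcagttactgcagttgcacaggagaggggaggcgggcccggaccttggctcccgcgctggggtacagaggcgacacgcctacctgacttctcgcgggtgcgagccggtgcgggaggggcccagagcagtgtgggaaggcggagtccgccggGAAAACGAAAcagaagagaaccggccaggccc
The Ifih1 window held GAAACAGAAA at positions 33 to 42 after the start. The Eif2ak2 window held GAAAACGAAA at positions 19 to 28. The windows of Adar, Samhd1 and Trex1 did not hold the pattern, which says only that these letters are not in these windows.

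Facts of the 12 arrays that touch the values below are these. Ifnar1 read 6.56 to 6.68 in USP18ko:IFNARko and 6.24 to 6.59 in IFNARko arrays, against 7.76 to 8.01 in USP18ko and 7.44 to 8.21 in WT arrays, on the log2 scale of the deposited values. Usp18 read 3.55 to 3.76 in USP18ko, 3.50 to 3.71 in USP18ko:IFNARko, 3.53 to 3.67 in IFNARko and 4.04 to 4.36 in WT, and where its probes lie relative to the deletion is not stated in the labels. IFNARko replicate 1 stood apart: its beta-actin 3′ signal exceeded the 5′ signal by 1.48, where the other 11 arrays had 0.20 to 0.54. It correlated with them at 0.963 to 0.974, and they with each other at 0.983 to 0.998. Xist, expressed in females, was high in all 3 USP18ko:IFNARko arrays and in WT replicate 1 (10.17 to 11.34) and low in the other 8 arrays (4.98 to 5.69). The Y-linked gene Eif2s3y was low in USP18ko:IFNARko replicates 1 and 3 and in WT replicate 1 (3.05 to 3.22) and high in the other 9 arrays (7.16 to 8.94), so USP18ko:IFNARko replicate 2 carried both signals. In the comparisons of USP18ko:IFNARko with USP18ko and with IFNARko, the Xist signal and the genotype cannot be told apart. The brain label was checked against Snap25 (neurons), Aldoc (astrocytes) and Mbp (oligodendrocytes), which averaged 12.09, 11.87 and 11.51 in WT arrays, against array medians of 6.98 to 7.07.

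The comparison of USP18ko with WT asked what loss of Usp18 does to these genes while the receptor gene is intact. Sensor genes were higher in USP18ko brain, by up to 2.41 on the log2 scale for Ifih1. Zbp1, Dhx58 and Samhd1 were higher as well, as was the probe set that Trex1 shares with Atrip, and Eif2ak2 and Adar did not pass the test. Limma called 7 of the 14 probe sets higher, belonging to 5 genes, and 0 lower, where it called 0.968% of all probe sets higher and 0.00884% lower. A call here is a Benjamini-Hochberg adjusted p under 0.05 over all 22626 probe sets. The 3 USP18ko arrays all lay above the 3 WT arrays in 11 of the 14 probe sets, against 4.10% of all probe sets, and the groups overlapped in the other 3. The median log2 difference was 0.70 for the 14 probe sets, with a range of -0.02 to 2.41, and -0.02 for all probe sets. In bulk tissue, more cells of a type and more RNA per cell cannot be told apart.

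**Figure D1:**
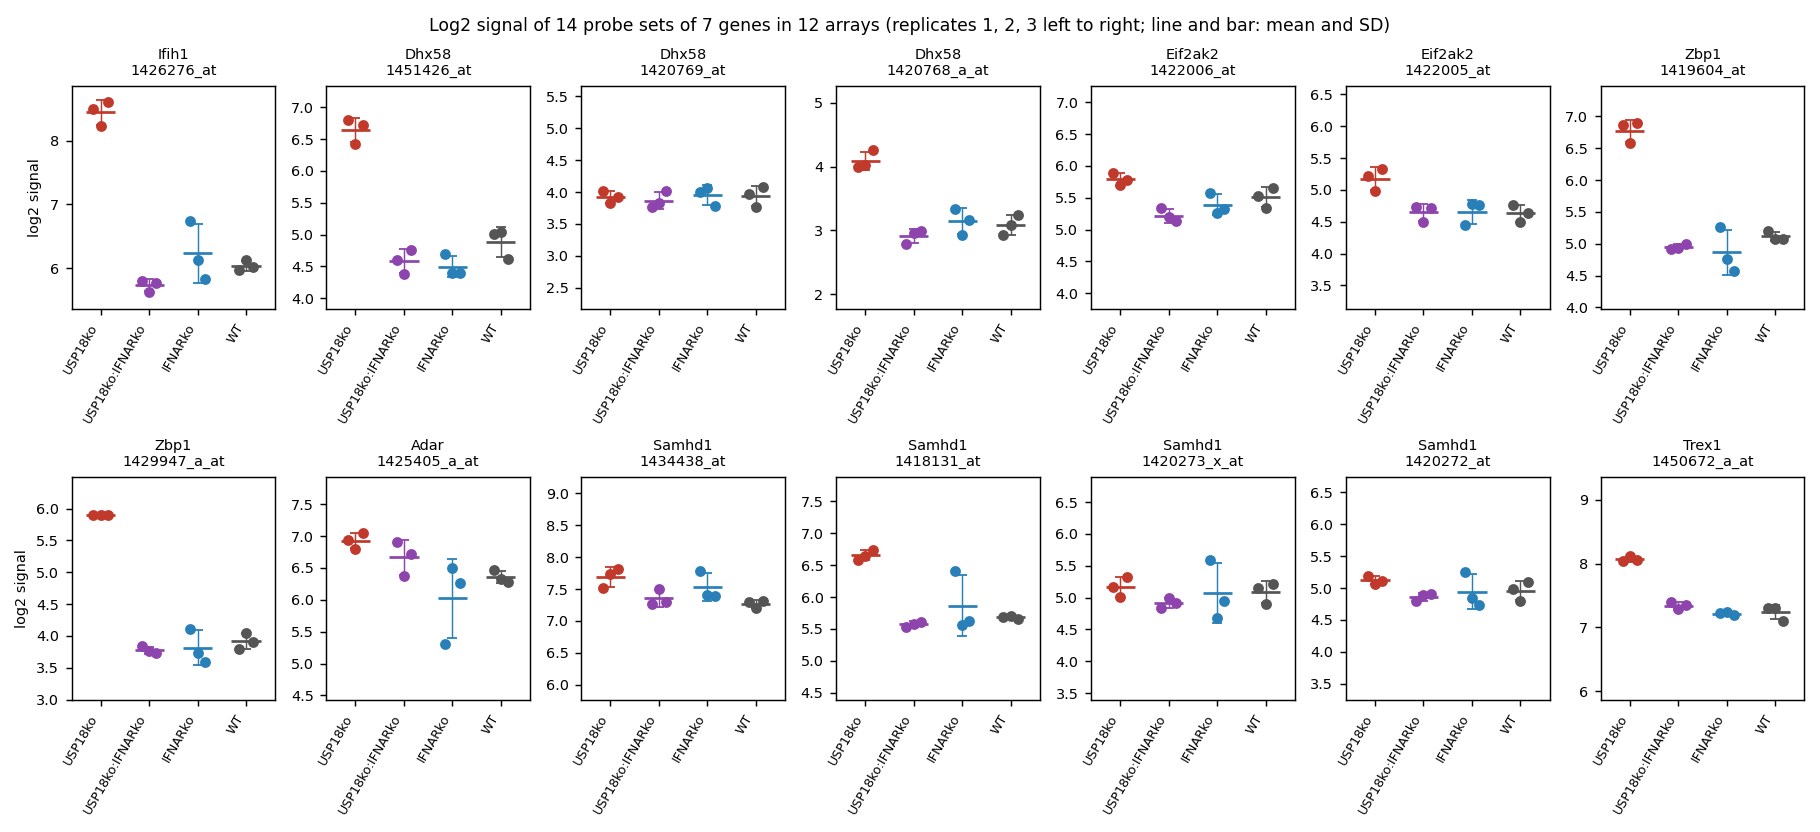
Log2 signal (vertical axis, each panel spanning the same number of units) of the 14 probe sets of 7 genes in the 12 arrays, by genotype, with each array as a point and mean and SD as lines. The 3 USP18ko arrays of Ifih1 lie at 8.23 to 8.60 and no other array is above 6.74. Adar overlaps between USP18ko and USP18ko:IFNARko but not between USP18ko and WT. Dhx58 1420769_at, Samhd1 1420273_x_at and Samhd1 1420272_at overlap between USP18ko and WT.

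Ifih1 encodes MDA5, the cytosolic sensor of long double-stranded RNA. Its probe set 1426276_at, on chromosome 2, read 8.50, 8.23 and 8.60 in the USP18ko arrays, 5.80, 5.62 and 5.76 in the USP18ko:IFNARko arrays, 6.74, 6.12 and 5.82 in the IFNARko arrays, and 5.97, 6.12 and 6.02 in the WT arrays. All 3 USP18ko arrays were higher than the other 9, with the nearest, IFNARko replicate 1, at 6.74. The mean was 8.44 ± 0.20 in USP18ko and 6.04 ± 0.08 in WT (SD, n = 3 each), a log2 difference of 2.41 (SE 0.19, 95% confidence interval 1.99 to 2.83, limma adjusted p = 1.72e-05), or a 5.30-fold higher signal. In USP18ko:IFNARko the mean was 5.73 ± 0.09 (SD, n = 3), which was lower than in USP18ko by a log2 difference of -2.72 (SE 0.19, limma adjusted p = 4.79e-06).

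Dhx58 encodes LGP2, a helicase of the same family that binds RNA without a signalling domain of its own and tunes MDA5 signalling. Probe set 1451426_at, on chromosome 11, read 6.79, 6.43 and 6.71 in USP18ko, 4.60, 4.38 and 4.76 in USP18ko:IFNARko, 4.70, 4.40 and 4.40 in IFNARko, and 5.01, 5.04 and 4.62 in WT arrays. The USP18ko arrays lay above all 9 others, and the other groups overlapped. The mean of 6.64 ± 0.19 in USP18ko exceeded 4.89 ± 0.23 in WT (SD, n = 3 each) by 1.76 (SE 0.15, limma adjusted p = 3.99e-05). Probe set 1420768_a_at, of a kind that binds several transcripts of 1 gene, read 3.99, 4.02 and 4.26 in USP18ko, 2.78, 2.96 and 2.99 in USP18ko:IFNARko, 3.33, 2.93 and 3.16 in IFNARko, and 2.93, 3.08 and 3.24 in WT arrays. It too had its 3 USP18ko arrays above the other 9 and rose, by 1.01 (SE 0.13, limma adjusted p = 0.00128). The third probe set, 1420769_at, ran from 3.76 to 4.07 over all 12 arrays with every group overlapping. Its difference of -0.02 had a 95% confidence interval of -0.28 to 0.24, so the probe sets of Dhx58 disagreed. The mean signals of these probe sets lay at percentiles 27.0, 5.72 and 12.7 of all probe sets, and no detection calls were used here.

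Eif2ak2 encodes PKR, a kinase that is switched on by double-stranded RNA and stops translation by phosphorylating eIF2 alpha. Probe set 1422006_at, on chromosome 17, read 5.89, 5.70 and 5.77 in USP18ko, 5.34, 5.19 and 5.13 in USP18ko:IFNARko, 5.58, 5.26 and 5.33 in IFNARko, and 5.53, 5.35 and 5.65 in WT arrays. The USP18ko arrays were the highest 3 of the 12, the nearest being a WT array at 5.65 against 5.70. The log2 difference between USP18ko and WT was 0.28 (95% confidence interval 0.02 to 0.54, limma adjusted p = 1.00). Probe set 1422005_at read 5.22, 4.98 and 5.33 in USP18ko, 4.74, 4.50 and 4.71 in USP18ko:IFNARko, 4.44, 4.77 and 4.76 in IFNARko, and 4.76, 4.50 and 4.63 in WT arrays. Again the USP18ko arrays were above the other 9. Its difference was 0.54 (SE 0.13, 95% confidence interval 0.25 to 0.83, limma adjusted p = 0.136), and without IFNARko replicate 1 the same difference passed with adjusted p = 0.0380.

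Zbp1 encodes a sensor of nucleic acids in the Z conformation that can start necroptosis through RIPK3. Probe set 1419604_at, on chromosome 2, read 6.86, 6.58 and 6.89 in USP18ko, 4.91, 4.93 and 5.0 in USP18ko:IFNARko, 5.26, 4.77 and 4.57 in IFNARko, and 5.20, 5.08 and 5.08 in WT arrays. Probe set 1429947_a_at read 5.90, 5.89 and 5.90 in USP18ko, 3.84, 3.76 and 3.73 in USP18ko:IFNARko, 4.12, 3.74 and 3.59 in IFNARko, and 3.80, 4.04 and 3.91 in WT arrays. In both probe sets the USP18ko arrays were separated from all others: the lowest USP18ko array read 6.58 against 5.26 for the highest other in 1419604_at, and 5.89 against 4.12 in 1429947_a_at. Zbp1 rose by 1.66 (SE 0.16, limma adjusted p = 7.44e-05) in 1419604_at and by 1.98 (SE 0.13, limma adjusted p = 2.49e-06) in 1429947_a_at.

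Adar encodes ADAR1, which converts adenosine to inosine in double-stranded RNA and so keeps the cell's own RNA from MDA5. Its probe set 1425405_a_at, on chromosome 3, read 6.94, 6.80 and 7.04 in USP18ko, 6.91, 6.37 and 6.72 in USP18ko:IFNARko, 5.31, 6.49 and 6.26 in IFNARko, and 6.46, 6.33 and 6.28 in WT arrays. The USP18ko arrays lay above the WT arrays but overlapped the USP18ko:IFNARko arrays, and IFNARko replicate 1 was the lowest of all. The difference between USP18ko and WT was 0.57 (95% confidence interval 0.03 to 1.11, limma adjusted p = 1.00). The IFNARko arrays had an SD of 0.63. With any single array left out the difference was not called. It passed, unchanged at 0.57, without IFNARko replicate 1 and USP18ko:IFNARko replicate 2 (limma adjusted p = 0.0264). That setting, chosen after seeing the data, takes out the lowest array of each of those groups, neither of them in this comparison. The difference also passed with array weights, which stopped before convergence (0.65, limma adjusted p = 0.00295). It passed too with gene-by-gene weights, added after seeing the data (0.64, limma adjusted p = 0.0292).

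Samhd1 encodes a phosphohydrolase that breaks down deoxynucleotides, and its loss in humans causes an interferonopathy. Probe set 1418131_at, on chromosome 2, read 6.58, 6.65 and 6.74 in USP18ko, 5.52, 5.58 and 5.61 in USP18ko:IFNARko, 6.41, 5.56 and 5.63 in IFNARko, and 5.68, 5.71 and 5.66 in WT arrays. The USP18ko arrays were above the other 9, and IFNARko replicate 1 stood nearest at 6.41. This probe set rose by 0.97 (SE 0.18, 95% confidence interval 0.58 to 1.37, limma adjusted p = 0.0200). That call was lost on leaving out any single USP18ko or WT array, with differences of 0.93 to 1.01 and adjusted p of 0.0621 to 0.118. Probe set 1434438_at read 7.52, 7.73 and 7.82 in USP18ko, 7.26, 7.50 and 7.30 in USP18ko:IFNARko, 7.79, 7.41 and 7.39 in IFNARko, and 7.29, 7.20 and 7.31 in WT arrays. It did not pass, at 0.42 (95% confidence interval 0.14 to 0.70, limma adjusted p = 0.425), though the USP18ko and WT arrays did not overlap. The 2 dimmer probe sets, 1420273_x_at and 1420272_at, differed by 0.08 and 0.16 and their groups overlapped, so the probe sets of Samhd1 disagreed as well.

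Trex1 encodes a 3′ exonuclease that degrades DNA in the cytosol. The probe set 1450672_a_at, on chromosome 9, is annotated to both Atrip and Trex1, whose transcripts cannot be told apart here. It read 8.04, 8.11 and 8.06 in USP18ko, 7.40, 7.28 and 7.35 in USP18ko:IFNARko, 7.22, 7.24 and 7.19 in IFNARko, and 7.31, 7.31 and 7.11 in WT arrays. The 3 USP18ko arrays were above the other 9, of which the highest read 7.40. It rose by 0.83 (SE 0.09, 95% confidence interval 0.63 to 1.02, limma adjusted p = 2.61e-04), a 1.78-fold higher signal.

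Over the 4 genotypes, 9 of the 14 probe sets had all 3 USP18ko arrays above the other 9, against 1.78% of all probe sets. With IFNARko replicate 1 left out of the other 9, Samhd1 1434438_at joined them, so that 10 of 14 were separated, against 2.19% of all. The spread among replicates was smallest in USP18ko for Zbp1 1429947_a_at (SD 0.0031) and highest in IFNARko for Adar (SD 0.63), and the median SD of the 14 probe sets was 0.13 in USP18ko, 0.10 in USP18ko:IFNARko, 0.25 in IFNARko and 0.13 in WT. IFNARko replicate 1 lay above the mean of IFNARko replicates 2 and 3 for Samhd1 1418131_at by 0.82, for Ifih1 by 0.77 and for Zbp1 1419604_at by 0.59, and below it for Adar (-1.07). For Trex1 the same offset was 0.0036.

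The comparison of USP18ko:IFNARko with USP18ko asked what loss of the receptor gene does on the Usp18 knockout background. All 14 log2 differences were negative, and 8 probe sets of 6 genes were called lower with 0 higher, where limma called 1.16% of all probe sets lower and 0.0309% higher. The 3 USP18ko:IFNARko arrays all lay below the 3 USP18ko arrays in 12 probe sets, against 7.12% of all probe sets, and the exceptions were Adar and Dhx58 1420769_at. Besides Ifih1, Dhx58 1451426_at fell by 2.06 (SE 0.15, limma adjusted p = 7.40e-06) and the difference of Dhx58 1420768_a_at was -1.18 (SE 0.13, limma adjusted p = 2.92e-04). Zbp1 fell by 1.83 (SE 0.16, limma adjusted p = 2.42e-05) in 1419604_at, and its difference in 1429947_a_at was -2.12 (SE 0.13, limma adjusted p = 1.09e-06). Trex1 fell by 0.73 (SE 0.09, limma adjusted p = 7.05e-04). Samhd1 1418131_at fell by 1.08 (SE 0.18, limma adjusted p = 0.00776), a call lost without USP18ko replicate 3 (-1.04). These comparisons share the 3 USP18ko arrays with those against WT.

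Eif2ak2 1422006_at passed here, with a fall of 0.57 (SE 0.12, limma adjusted p = 0.0415), a call that 14 of 25 alternative settings ended. Its other probe set differed by -0.53 (limma adjusted p = 0.131) and passed without IFNARko replicate 1 (-0.53, adjusted p = 0.0373). Adar differed by -0.26 (95% confidence interval -0.80 to 0.28, limma adjusted p = 1.00). With Eif2s3y as a covariate, the calls of Eif2ak2 1422006_at (-0.60, adjusted p = 0.243) and Samhd1 1418131_at (-1.04, adjusted p = 0.115) were lost, and the other 6 calls were kept.

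**Figure D2:**
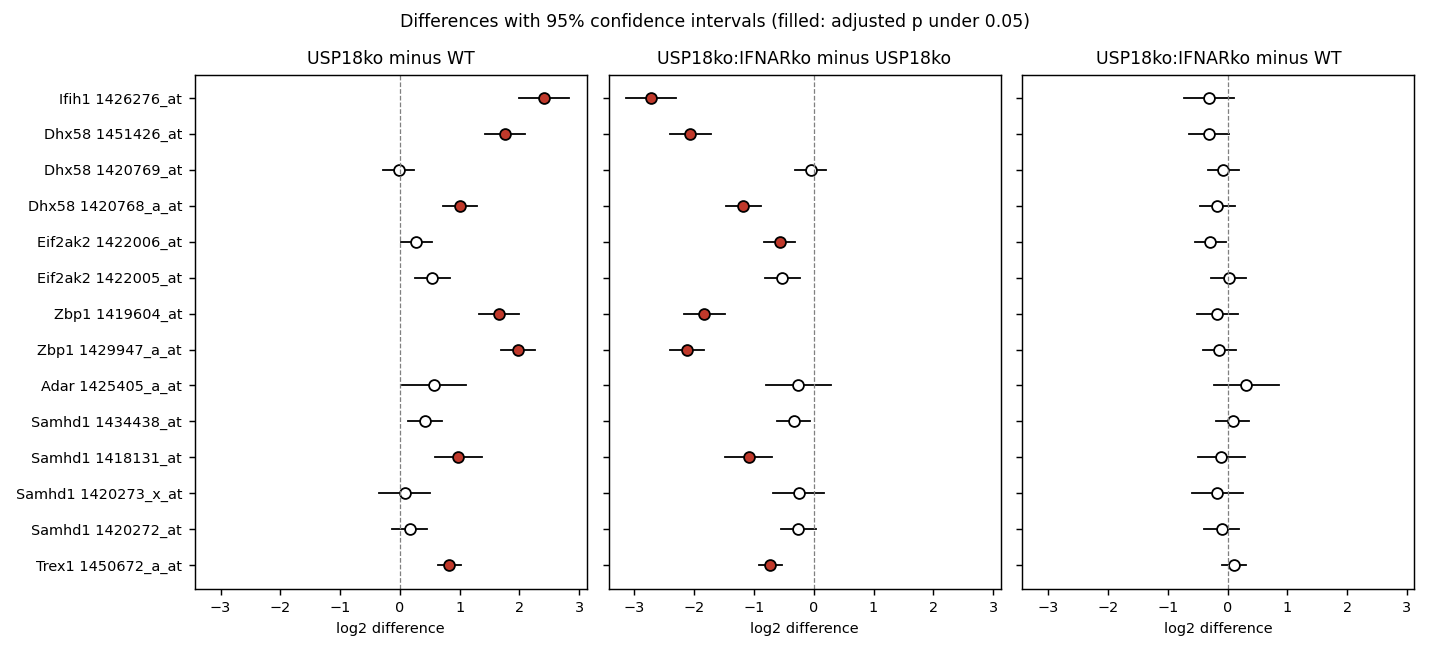
Log2 differences (horizontal axis) with 95% confidence intervals for the 14 probe sets in the comparisons of USP18ko with WT, USP18ko:IFNARko with USP18ko and USP18ko:IFNARko with WT, with filled points at an adjusted p under 0.05. Ifih1 lies at 2.41, -2.72 and -0.31.

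The comparison of USP18ko:IFNARko with WT asked what differs when both genes are lost. None of the 14 probe sets passed, and limma called 0% of all probe sets, with 950 at an unadjusted p under 0.05. The differences ran from -0.31 for Ifih1 (95% confidence interval -0.73 to 0.11) to 0.31 for Adar (95% confidence interval -0.23 to 0.85), with a median of -0.13 and 10 of 14 negative. In 4 probe sets, those of Ifih1, Eif2ak2 1422006_at, Zbp1 1419604_at and Samhd1 1418131_at, all USP18ko:IFNARko arrays lay below the WT arrays, against 9.68% of all probe sets, and in 0 they all lay above, against 6.18% of all. The upper limit for Ifih1, 0.11, was far below its difference of 2.41 between USP18ko and WT. With gene-by-gene array weights 4 of the 14 were called in this comparison, where that setting called 2306 of all 22626 probe sets. They were Dhx58 1420768_a_at at -0.32 (adjusted p = 0.0323), Eif2ak2 1422006_at at -0.38 (adjusted p = 0.0102), Adar at 0.42 (adjusted p = 0.0417) and Trex1 at 0.22 (adjusted p = 0.0348). The array weights that stopped before convergence called these 4 as well, among 7872 probe sets. In the other settings the adjusted p of these 4 ran up to 1.00.

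The comparison of IFNARko with WT asked what loss of the receptor gene alone does. None of the 14 probe sets passed, where limma called 0.0177% of all probe sets, with 2075 at an unadjusted p under 0.05. The largest differences were -0.39 for Dhx58 1451426_at (95% confidence interval -0.73 to -0.05, limma adjusted p = 0.513) and -0.34 for Adar (limma adjusted p = 0.642). Samhd1 1434438_at was the 1 probe set in which all IFNARko arrays lay above all WT arrays, against 5.47% of all, with a difference of 0.26. Without IFNARko replicate 1 the differences were -0.49 for Dhx58 1451426_at, -0.45 and -0.25 for Zbp1, -0.06 for Ifih1 and 0.02 for Adar, and again 0 passed. Gene-by-gene array weights called 5 of the 14 here, where they called 2884 of all 22626 probe sets. All 5 were lower in IFNARko: Eif2ak2 1422006_at (-0.31), Zbp1 1419604_at (-0.43) and 1429947_a_at (-0.26), and Samhd1 1420273_x_at (-0.32) and 1420272_at (-0.28).

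The comparison of USP18ko:IFNARko with IFNARko asked what loss of Usp18 does without the receptor. None of the 14 passed, and limma called 0% of all probe sets, with 1889 at an unadjusted p under 0.05. The largest differences were 0.65 for Adar (95% confidence interval 0.11 to 1.19, limma adjusted p = 0.547) and -0.50 for Ifih1 (95% confidence interval -0.92 to -0.08, limma adjusted p = 0.547). Without IFNARko replicate 1 they were 0.29 and -0.25. For Zbp1 1429947_a_at the difference was -0.04 (95% confidence interval -0.32 to 0.24), and for Trex1 it was 0.13 (95% confidence interval -0.07 to 0.32).

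The interaction tested directly whether the effect of Usp18 loss differed between brains without and with the receptor gene. It was negative and past the threshold for 7 probe sets of 5 genes, where limma called 0.685% of all probe sets lower, and 0 of the 14 were called higher, against 0.0177% of all. Ifih1 had an interaction of -2.91 (SE 0.27, 95% confidence interval -3.50 to -2.32, limma adjusted p = 1.28e-04): its effect of Usp18 loss was -0.50 without and 2.41 with the receptor gene. For Zbp1 the interaction was -1.58 (limma adjusted p = 0.00373) and -2.02 (limma adjusted p = 1.01e-04), and for Dhx58 it was -1.67 (limma adjusted p = 0.00210) and -1.24 (limma adjusted p = 0.00643). Samhd1 1418131_at at -1.27 (limma adjusted p = 0.0484) and Trex1 at -0.70 (SE 0.13, limma adjusted p = 0.0234) passed narrowly, and each of these calls was lost in 13 alternative settings. Eif2ak2 did not pass, at -0.45 and -0.55, and Adar had an interaction of 0.08 (95% confidence interval -0.69 to 0.84). Without IFNARko replicate 1 the same 7 probe sets were called, with Ifih1 at -2.65 and Samhd1 1418131_at at -0.99. With Eif2s3y as a covariate 3 remained called, Ifih1 at -2.90, Dhx58 1451426_at at -1.94 and Zbp1 1429947_a_at at -1.89. The other 4 lost the call at differences of -1.03 (Dhx58 1420768_a_at), -1.65 (Zbp1 1419604_at), -1.19 (Samhd1 1418131_at) and -0.80 (Trex1).

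**Figure D3:**
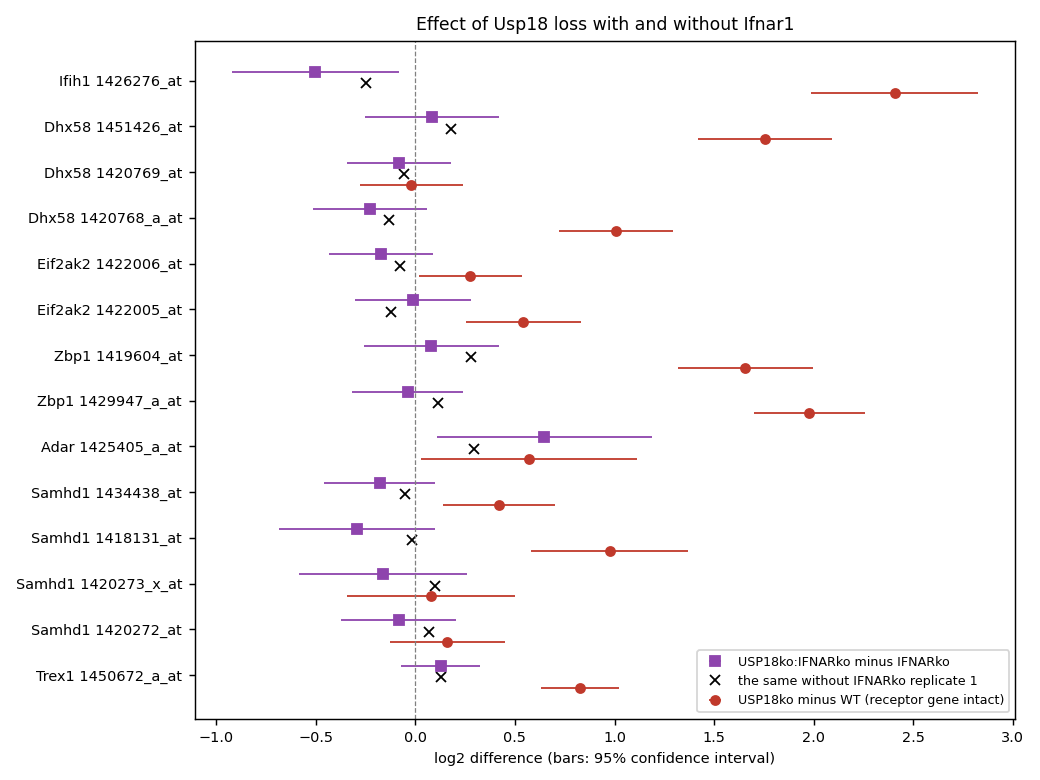
Log2 difference (horizontal axis, bars are 95% confidence intervals) for each of the 14 probe sets between USP18ko:IFNARko and IFNARko arrays (squares), the same without IFNARko replicate 1 (crosses), and between USP18ko and WT arrays (circles). For Ifih1 the squares and circles lie at -0.50 and 2.41, and for Adar at 0.65 and 0.57.

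Other genes that sense RNA or act beside the sensors were also higher in USP18ko than in WT. These lists were drawn up with earlier results of these data known, and a gene was represented by its brightest probe set. Of 18 measured genes among 22 listed receptors, co-sensors and adaptors of RNA sensing, 7 rose and 0 fell, where limma called 0.968% of all probe sets higher and 0.00884% lower. The list's median difference was 0.35, against -0.02 for all probe sets. The endosomal receptor gene Tlr3 rose by 1.63 (SE 0.11, limma adjusted p = 3.41e-06), Trim25, a ubiquitin ligase of RIG-I, by 1.39 and Ddx60 by 2.08. The antiviral oligoadenylate synthetase genes Oas1a, Oas2 and Oas3 rose by 2.39, 1.13 and 0.63, and the RNA-binding protein gene Ifit1 by 4.87. The brightest of the genes that did not pass, the helicases Ddx3x, Dhx15 and Dhx9, differed by -0.07, 0.00 and 0.37. Ddx58, which encodes RIG-I, and 3 others of this list had no matched probe set.

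Of 11 measured DNA sensing genes, 2 rose, Ifi204 by 1.97 (SE 0.32, limma adjusted p = 0.00640) and Unc93b1, a chaperone of endosomal receptors, by 0.50. For this list and those below, the share of all probe sets called higher between USP18ko and WT was 0.968%. The list's median was -0.00, and Hmgb1, the brightest of the genes that did not pass, differed by -0.11. Of 14 kinases and transcription factors downstream of the sensors, 1 rose, Irf7 (3.40, SE 0.12, limma adjusted p = 1.81e-08), the factor that amplifies interferon induction. The kinase gene Tbk1 and the NF-kappaB gene Rela differed by 0.00 and 0.04 and did not pass. The interferon ligand genes themselves did not pass, with 0 of 7 called, and Ifnb1 differed by 0.10. Their WT means were low, from 2.83 (Ifna11) to 5.25 (Ifna1), against array medians of 6.98 to 7.07. Without detection calls, no change and no detectable signal cannot be told apart for them.

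Partners of the members in their own pathways were mostly not called. Between USP18ko and WT limma called 0.968% of all probe sets higher and 0.00884% lower, and 0 in a list this short is near that share. Of 12 genes of eIF2 alpha kinases and the integrated stress response, in which PKR acts, 0 passed, with Atf4 at 0.09 and the kinase gene Eif2ak1 at -0.17. Of 8 cell death genes of the ZBP1 pathway 0 passed, with Casp8 at 0.18 and Pycard at 1.23 (SE 0.35, limma adjusted p = 0.331). Of 4 measured genes in a list of other RNA editing deaminases 0 passed, and Adarb1, which edits neuronal receptor transcripts, differed by 0.01. Apobec1, an RNA-editing deaminase gene outside that list, differed by 1.74. Of 9 genes of deoxynucleotide metabolism, the pathway of SAMHD1's substrates, 0 passed, with Rrm2 at 0.02 and Dck at -0.07.

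Among 12 nucleases, 2 rose: the RNA exonuclease gene Isg20 by 1.59 (SE 0.18, limma adjusted p = 3.76e-04) and the lysosomal exonuclease gene Pld4 by 1.17 (SE 0.18, limma adjusted p = 0.00391), while Pld3 differed by 0.01. Of 13 other interferonopathy genes, 2 rose and 1 fell. Psmb8, a subunit of the immunoproteasome, rose by 2.85 (SE 0.18, limma adjusted p = 2.49e-06), and Isg15, measured by a probe set also annotated to Gm9706, rose by 4.41 (SE 0.24, limma adjusted p = 6.60e-07). Usp18, the targeted gene, fell by 0.63. Of the 10 reference interferon-stimulated genes 8 rose, with a median of 3.52. Of 8 negative regulators 2 rose, Isg15 and Trim30a (2.08), and Usp18 fell. Beside the counts of these lists, limma called 0.968% of all probe sets higher and 0.00884% lower between USP18ko and WT.

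In USP18ko:IFNARko against USP18ko, 9 of 18 RNA sensing genes, 3 of 11 DNA sensing genes and 1 of 14 downstream kinases and factors were called lower. The same held for 3 of 13 other interferonopathy genes, 2 of 12 nucleases, 2 of 8 negative regulators and 9 of 10 reference interferon-stimulated genes. These lists had 0 higher calls. Of all probe sets, 1.16% were called lower and 0.0309% higher. The stress response, ZBP1 death, deaminase and deoxynucleotide lists had 0 calls in either direction. In the interaction, 4 of 18 RNA sensing genes were lower: Tlr3 at -1.80, Ddx60 at -2.28, Oas1a at -2.31 and Ifit1 at -4.87. So were 8 of the 10 reference interferon-stimulated genes, Irf7 (-3.26) and Isg15 (-4.60) among them. Psmb8 (-2.85), Isg20 (-1.72) and Trim30a (-2.16) of other lists were called lower too. Of all probe sets, limma called 0.685% lower in the interaction. The comparisons without USP18ko arrays (USP18ko:IFNARko with IFNARko and with WT, and IFNARko with WT) had 0 called genes in every list. Limma called 0%, 0% and 0.0177% of all probe sets in them, so a count of 0 says little about the lists.

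**Figure D4:**
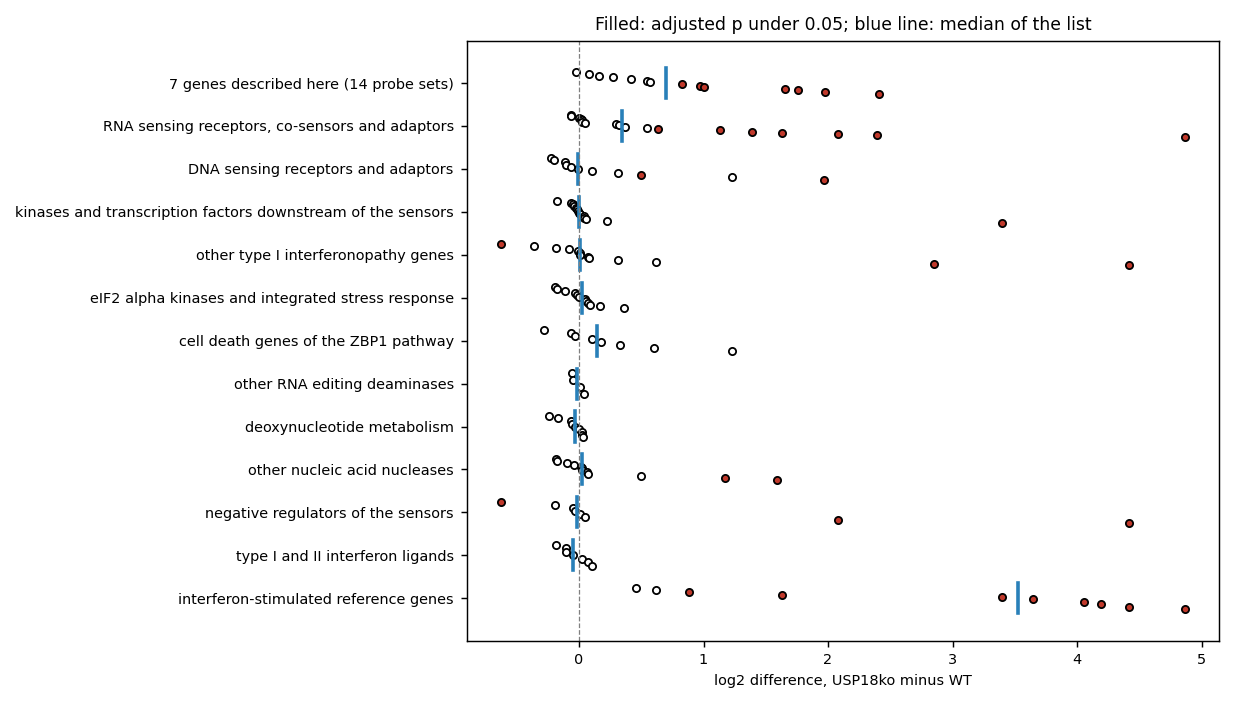
Log2 difference between USP18ko and WT (horizontal axis) for the 14 probe sets and for each measured gene of 12 pathway lists, with filled points at an adjusted p under 0.05 and the list median as a blue line. The median lies at 0.70 for the 14 probe sets, 0.35 for RNA sensing genes, 3.52 for the reference interferon-stimulated genes and near 0 for the other lists apart from 0.14 for ZBP1 cell death genes.

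Some markers of other cells moved with the members. The summed linear signal of 14 microglia markers was 4428 to 7556 in USP18ko, 2490 to 2625 in USP18ko:IFNARko, 2399 to 2763 in IFNARko and 1784 to 4138 in WT arrays, and that of 10 monocyte and neutrophil markers was 925 to 1295 in USP18ko, 345 to 509 in USP18ko:IFNARko, 313 to 471 in IFNARko and 315 to 461 in WT. Perivascular macrophage markers summed to 689 to 904 in USP18ko, 413 to 493 in USP18ko:IFNARko, 554 to 791 in IFNARko and 370 to 571 in WT. Between USP18ko and WT, 3 of 14 microglia markers rose (Aif1 by 1.93, C1qa by 1.79 and Itgam by 0.80). The other 11 did not pass, among them C1qb at 1.55, C1qc at 1.60, Tyrobp at 1.26 and Csf1r at 0.89, and P2ry12 at -0.35, Gpr34 at -0.29 and Fcrls at 0.00. The C1q, Csf1r and Tyrobp probe sets were the brightest of the list in USP18ko and weigh most in its sum. In the same comparison 1 of 7 perivascular macrophage markers (Ms4a7 by 1.74) and 1 of 10 monocyte and neutrophil markers (Plac8 by 3.35) rose. Ly6c2 at 1.28, S100a8 at 1.90, S100a9 at 1.63 and Ngp at 0.56 did not pass. Neither did Ccr2 at 0.19, Chil3 at 0.05, Mpo at 0.00, Elane at -0.06 and Camp at -0.16. Plac8 and the Ly6c2 probe set, at 8.54 and 8.89 in USP18ko, weigh most in that list's sum. The Ly6c2 probe set is also annotated to Ly6c1 and stands in the endothelial list too. Of 14 lymphocyte markers 0 rose, with sums of 361 to 425 in USP18ko and 368 to 399 in WT, and of the endothelial, astrocyte, oligodendrocyte, neuron and choroid plexus markers 0 rose. Beside these marker counts, limma called 0.968% of all probe sets higher between USP18ko and WT, and 0 in a list this short is near that share. The part of these cells in the values of the 7 genes was not tested.

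The probe sets whose profile over the 12 arrays was most like that of a called member, by root mean square difference of log2 signals centred on their own means, are named here. They share the arrays with the members, and the likeness is a description. For Ifih1 the nearest were Gbp7, a guanylate-binding protein gene, at 0.181, and Parp14 at 0.211, and for Dhx58 1451426_at they were Ms4a4c at 0.196, Uba7, the activating enzyme for ISG15, at 0.201 and the RNA-editing deaminase Apobec1 at 0.208. Dhx58 1420768_a_at was nearest to Cd86 at 0.140, Irf9 at 0.142 and Lcp1 at 0.142. Zbp1 1419604_at was nearest to Apobec1 at 0.155, Tlr3 at 0.171 and Isg20 at 0.177. Zbp1 1429947_a_at was nearest to the macrophage gene Ms4a7 at 0.138, Mpeg1 at 0.148 and Apobec1 at 0.168. Samhd1 1418131_at was nearest to Casp12 at 0.141 and Fgl2 at 0.160. Trex1 was nearest to Xdh at 0.0916, Znfx1 at 0.108 and Ifitm6 at 0.118, and its own profile varied with an SD of 0.355 over the 12 arrays.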

How the data were processed

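RNA of 12 mouse brain samples was measured on 1-colour 3′ expression arrays. The authors deposited 1 table of log2 signals per probe set. They used the R package affy, per the submitters' processing notes, and no source used here gives its version, background correction, normalization or summary. Base 2 was taken from the range of the values, which went from 2.36 to 13.81. No probe-level files were used, so there are no detection calls, and precision rests on the number of arrays.

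Of 22690 probe sets, 64 controls were left out. Each of the other 22626 was tested by itself with limma 3.58.1 in R 4.3.3 (lmFit, contrasts.fit, eBayes; 12 arrays, genotype only, 8 residual degrees of freedom, prior 3.79), two-sided. Benjamini-Hochberg adjustment covered all probe sets, with calls at adjusted p-values under 0.05. With 3 arrays a group, the smallest two-sided p of an exact permutation test is 0.1. Genes were named from the platform annotation, which can be old. Tables and sums were made in Python 3.11.15. The test was checked on simulated data.

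The text names all probe sets of the 7 genes and up to 3 nearest profiles of each called member. From the lists it names called genes, though not every one, and a selection of those not called. Members and lists were chosen with earlier results of these data known. The deviations of same-numbered samples correlated above 0.1 in all 3 pairs of USP18ko with USP18ko:IFNARko (0.101, 0.256 and 0.146). The labels state no pairing. These correlations cannot show it, since those of differently numbered samples were not set beside them. In no other combination of groups did all 3 pairs pass (6 of 18 correlations above 0.1 in all, range -0.26 to 0.26). The replicate number as a block is an alternative.

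Alternatives were 1 probe set or the average per gene, leaving out probe sets below the 40th percentile of mean signal, median centring, quantile normalization, array weights, a trended and robust variance, only the 2 groups compared, a replicate block, Eif2s3y as a covariate, a log2 difference of at least 1, and each array left out. Leaving out 2 arrays at once and gene-by-gene weights were added after seeing the data.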

Additional observations from a re-analysis of the deposited data

Results flagged for a closer look

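The effect of Usp18 loss differed between brains without and with the receptor gene in 7 probe sets, by the interaction term in limma. The difference, taken as USP18ko:IFNARko minus IFNARko less USP18ko minus WT, was -2.91 for Ifih1, -1.67 and -1.24 for Dhx58 1451426_at and 1420768_a_at, -1.58 and -2.02 for Zbp1 1419604_at and 1429947_a_at, -1.27 for Samhd1 1418131_at and -0.70 for Trex1. The Ifih1, Dhx58 1451426_at and Zbp1 1429947_a_at calls were kept with Eif2s3y as a covariate, and 4 were lost with it: Dhx58 1420768_a_at (-1.03, adjusted p = 0.224), Zbp1 1419604_at (-1.65, adjusted p = 0.0631), Samhd1 1418131_at (-1.19, adjusted p = 0.757) and Trex1 (-0.80, adjusted p = 0.140). The differences stayed negative, and their SE was higher with the covariate.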

How the results depend on the processing

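Over 26 settings, 1910 of 2014 member differences stayed on the same side of the threshold. Of these, 1439 were called neither as reported nor in the alternative, and 93 of those changed sign. The calls of Ifih1, Dhx58 1451426_at and 1420768_a_at and both Zbp1 probe sets between USP18ko and WT were kept in every setting that gave a value. Averaging the 3 probe sets of Dhx58, which disagreed, gave 0.91 for USP18ko against WT, -1.10 for USP18ko:IFNARko against USP18ko and -0.99 for the interaction, all still called. The numbers below count probe sets called, with counts of the 14 members so named. Fewer features entered with 1 probe set per gene, where USP18ko against WT gave 143 (3 members), IFNARko against WT 1, USP18ko:IFNARko against WT 2, against USP18ko 4 members, and the interaction 105 (3 members). With averages per gene these were 3 members, 1, 2, 4 members and 105 (3 members). Above the 40th percentile they were 63 (2 members), 2 for IFNARko against WT, 75 (2 members) and 47 (2 members), since most members are dim. Quantile normalization gave 2 for IFNARko against WT. Array weights, which put 65.9 on WT replicate 3 and 0.0553 on IFNARko replicate 1 and stopped before convergence, gave 1812, 13339 (10 members), 7872 (9 members), 638, 4529 (5 members) and 2300, in the order USP18ko, IFNARko and USP18ko:IFNARko against WT, USP18ko:IFNARko against USP18ko and against IFNARko, and the interaction. They reversed 4 differences: Ifih1 (-0.17), Dhx58 1420769_at (-0.28) and Trex1 (0.088) in IFNARko against WT, and Zbp1 1429947_a_at (0.19) in USP18ko:IFNARko against IFNARko. The cause was not tested. Gene-by-gene weights gave 523, 2884 (5 members), 2306 (4 members), 598, 241 and 357. With only the 2 groups compared, IFNARko and USP18ko:IFNARko against WT gave 2 each, USP18ko:IFNARko against USP18ko 441 and against IFNARko 3. With Eif2s3y as a covariate the counts were 0 for IFNARko against WT, 1 for USP18ko:IFNARko against WT, 173 against USP18ko and 71 (3 members) for the interaction. Without IFNARko replicate 1 and USP18ko:IFNARko replicate 2, 9, 1 and 2 were called in IFNARko and USP18ko:IFNARko against WT and USP18ko:IFNARko against IFNARko. Without IFNARko replicate 1 and WT replicate 1, those 3 gave 23, 41 and 3, and USP18ko:IFNARko against USP18ko 464.

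With 1 array left out, USP18ko against WT gave 174 to 275 (6 to 8 members), IFNARko against WT 0 to 13 (0 members), USP18ko:IFNARko against WT 0 to 3 (0 members), against USP18ko 194 to 353 (6 to 9 members), against IFNARko 0 to 2 (0 members), and the interaction 106 to 165 (5 to 7 members). The replicate block gave 205 for USP18ko against WT, 1 for IFNARko against WT, 0 for USP18ko:IFNARko against WT, 255 against USP18ko, 1 against IFNARko and 135 for the interaction. Under this block the interaction calls of Samhd1 1418131_at (-1.27, SE 0.26, adjusted p = 0.0988) and Trex1 (-0.70, SE 0.13, adjusted p = 0.0600) were lost with the differences as reported, and it changed no other member call.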
